A study of Arabidopsis thaliana with 18 samples.

Results

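The nuclear photosystem and antenna genes of Arabidopsis thaliana are described here as 45 loci: 6 LHCA genes for the antenna of photosystem I, 14 LHCB genes for the antenna of photosystem II, 12 PSA genes for photosystem I subunits, 10 PSB genes for photosystem II subunits, and 3 electron carrier genes, PETE1 and PETE2 for plastocyanin and PETC for the Rieske iron-sulfur protein. They were chosen by locus identifier, with earlier results of these data known, and are 45 of the 33602 gene models counted. RNA was sequenced from whole plants grown in vitro. Each of the 6 genotypes has 3 libraries: yak1lst8-1, which carries both mutations; lst8-1; yak1; maktor1g1maktor5g, which carries both maktor alleles named; maktor1g1; and wild-type Col0. The mutants are labelled as knock-outs, LST8 being a partner protein of the TOR kinase, target of rapamycin, and YAK1 another protein kinase. Which genes are affected by the maktor alleles is not in the labels. The series title also names tor, which no library carries. All lines are in the Col0 accession. Plants of every genotype were untreated, stood at Boyes stage 1.02, and were kept at 20 °C under 16 h days, on 0.3 % sucrose. The design text counts 2 biological replicates, while the titles number 3 libraries a genotype. Nothing states that the 3 came from separate plants, so p-values measure the spread between libraries, which may be technical.

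Light-harvesting chlorophyll proteins bind chlorophyll and carotenoids around each photosystem and pass excitation energy to its reaction centre. The reaction centre proteins themselves are encoded in the plastid, whereas the antenna proteins and many peripheral subunits are encoded in the nucleus and imported. Photosystem II oxidises water, plastocyanin carries electrons from the cytochrome b6f complex, and photosystem I reduces ferredoxin. Many of the nuclear genes are held in several copies, and their transcripts are known to respond to light, the circadian clock and the state of the plastid.

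The libraries held 10801464 to 17548790 counts. LST8-1 (AT3G18140) averaged 1.53 ± 0.554 CPM, the count scaled to library size and composition, in yak1lst8-1 and 2.31 ± 0.159 CPM in lst8-1, against 50.7 ± 3.55 CPM in Col0 (SD, n = 3 each). YAK1 (AT5G35980) went against its label: it averaged 336.8 ± 72.0 CPM in the libraries labelled yak1lst8-1 and 321 ± 75.5 CPM in those labelled yak1, against 122 ± 20.3 CPM in Col0 (SD, n = 3 each). Its log2 fold change against Col0 was 1.39 ± 0.16 (SE) in the libraries labelled yak1, with an adjusted p of 6.11e-05 (edgeR quasi-likelihood test, Benjamini-Hochberg adjustment). A gene-level count does not show whether a transcript is intact, so the comparisons below are between libraries labelled yak1 or yak1lst8-1 and the others. Every member was counted in every library: the lowest count was 61, for LHCB4.3, and for the other members 1474. Members took 11.2 to 16.7 % of all counts in a library.

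Per kilobase of gene model, LHCB1.3 (AT1G29930) was the most abundant member in Col0, at 17087 ± 684 CPM per kb (SD, n = 3). The LHCB1 copies encode the main trimeric antenna protein of photosystem II. LHCB1.5 followed at 9453 ± 170.2 CPM per kb, and LHCB1.4, LHCB3 and LHCA4 came next at 5832 ± 457, 5553 ± 26.5 and 5530 ± 68.4 CPM per kb, which differ by less than the SD of LHCB1.4. At the low end stood PETE1 at 249 ± 9.84, LHCA5 at 183 ± 17.3, LHCA6 at 136.8 ± 4.95 and LHCB4.3 at 4.60 ± 0.369 CPM per kb. LHCA5 and LHCA6 are minor antenna proteins that link photosystem I to the NADH dehydrogenase-like complex. The most and the least abundant member thus both belong to the photosystem II antenna.

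Summed over its genes, the photosystem II antenna stood at 66179, 73922 and 79403 CPM in the yak1lst8-1 libraries, 57771, 66487 and 70015 CPM in lst8-1, and 63264, 72042 and 93595 CPM in yak1. The same sum was 49186, 64041 and 61665 CPM in maktor1g1maktor5g, 55501, 61086 and 65607 CPM in maktor1g1, and 70972, 68999 and 71114 CPM in Col0. The yak1 library numbered 3 was the highest of the 18 and lay well above the other two of its genotype. In each of the 5 mutant genotypes the library numbered 1 had the lowest sum, which was not so in Col0. In whole plants, fewer cells of a type and less RNA per cell cannot be told apart.

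The photosystem I subunits summed to 22358, 23732 and 25277 CPM in yak1lst8-1 and to 17534, 19163 and 20061 CPM in lst8-1, against 23656, 22166 and 21519 CPM in Col0. The lst8-1 libraries thus lay below every yak1lst8-1 and every Col0 library. For photosystem II subunits the sums were 23175, 25159 and 26155 CPM in yak1lst8-1, 18978, 20953 and 21820 CPM in lst8-1, and 22913, 21473 and 21002 CPM in Col0, where the lst8-1 and Col0 ranges overlap. The photosystem I antenna overlapped in all 3 of these genotypes, at 20001 to 23061, 18138 to 21553 and 21112 to 21716 CPM in yak1lst8-1, lst8-1 and Col0. The 3 electron carriers summed to 4407 ± 314 CPM in yak1lst8-1, 3571 ± 226 CPM in lst8-1 and 4080 ± 415 CPM in Col0 (SD, n = 3 each).

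**Figure D1:**
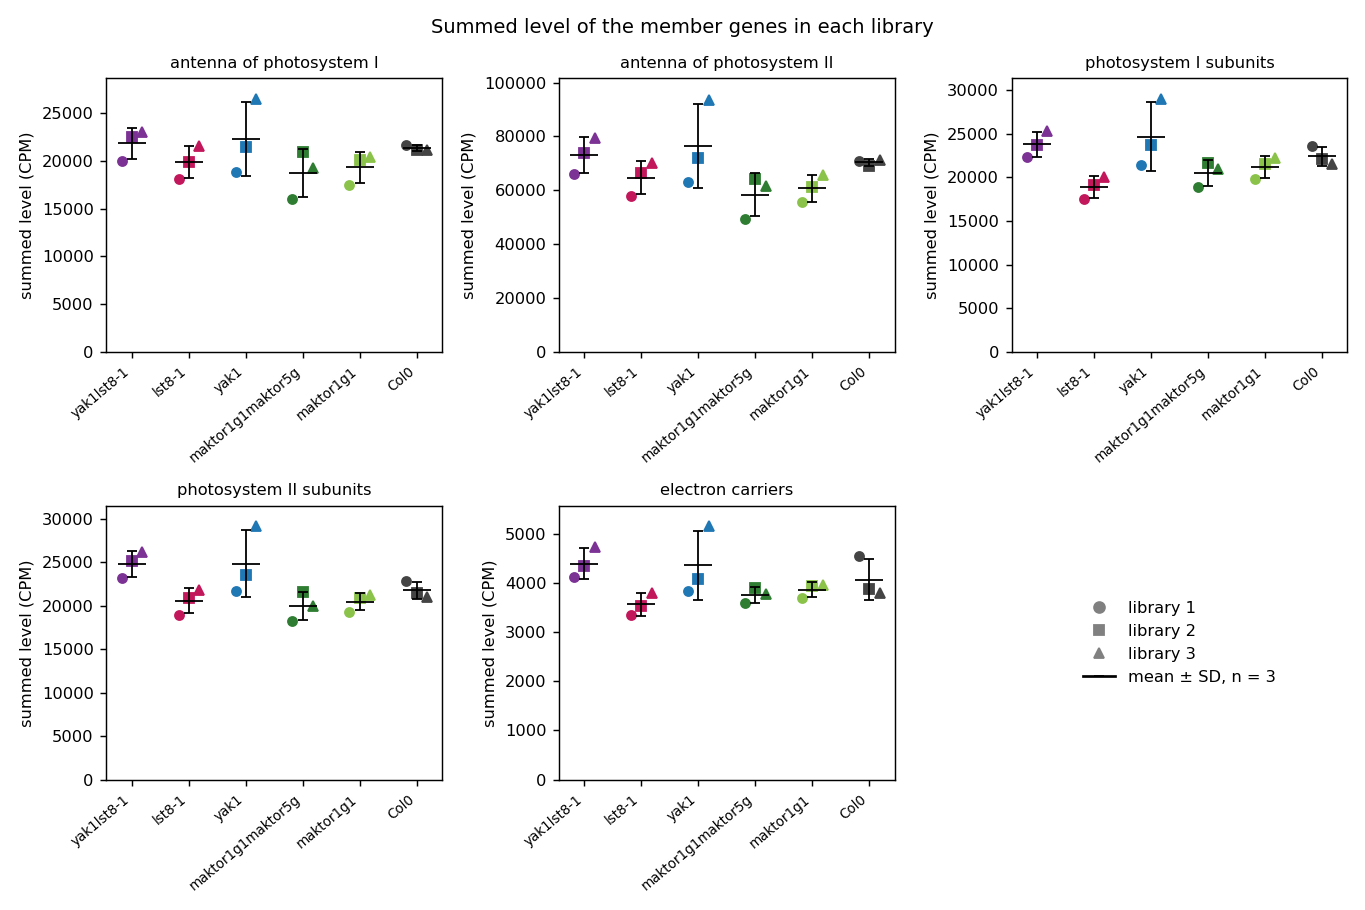
Summed level of the genes of each member list (CPM, y axis, from 0) in each library, by genotype (x axis); circles, squares and triangles are the libraries numbered 1, 2 and 3, and bars are the mean ± SD of 3 libraries. The lst8-1 libraries sit at 17534 to 20061 CPM for photosystem I subunits, below Col0 at 21519 to 23656 CPM, and the yak1 library numbered 3 is the highest in every panel.

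The clearest difference among the 45 genes was between yak1lst8-1 and lst8-1, which share the lst8-1 mutation and differ in the yak1 label. In yak1lst8-1, 26 members rose and 1 fell at an adjusted p below 0.05 (edgeR quasi-likelihood test, Benjamini-Hochberg adjustment over 20619 genes). Of all genes tested, 33.0 % were called in either direction in this comparison, 16.4 % as higher and 16.6 % as lower. The members' median log2 fold change was 0.34, and that of all genes tested was -0.016. By list, 10 of 12 photosystem I subunits, 5 of 10 photosystem II subunits, 2 of 6 photosystem I antenna genes, 7 of 14 photosystem II antenna genes and 2 of 3 carriers rose, and 1 photosystem II antenna gene, LHCB1.5, fell. Without the lst8-1 library numbered 1 the count was 14, and without the yak1lst8-1 library numbered 3 it was 17. A set of 12 members kept its call whichever single library was left out.

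In the photosystem I antenna, LHCA5 (AT1G45474) stood at 196, 199.8 and 220.3 CPM in yak1lst8-1, against 144, 141.5 and 155 CPM in lst8-1. LHCA6 (AT1G19150) stood at 135, 149 and 151 CPM in yak1lst8-1, against 104.5, 111 and 115 CPM in lst8-1. Both rose without overlap between the groups, by 0.48 ± 0.09 and 0.40 ± 0.12 on the log2 scale (SE, adjusted p = 0.000563 and 0.0175). The 4 core antenna genes LHCA1 to LHCA4, whose proteins form the belt beside photosystem I, had log2 fold changes of 0.07 to 0.21 and none was called. Whether the linker and the belt genes differed from each other was not tested.

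Among photosystem II antenna genes, LHCB4.1 (AT5G01530), which encodes one of the minor monomeric antenna proteins that join the trimers to the core, was at 3617, 4016 and 4222 CPM in yak1lst8-1, against 2700, 3045 and 3190 CPM in lst8-1. LHCB5 (AT4G10340), another minor antenna protein, was at 6219, 6921 and 7330 CPM in yak1lst8-1, against 4748, 5251 and 5542 CPM in lst8-1. All yak1lst8-1 libraries exceeded all lst8-1 libraries for both genes, with log2 fold changes of 0.41 ± 0.11 and 0.40 ± 0.11 (SE, adjusted p = 0.00990 and 0.0108). LHCB3 (AT5G54270), the third subunit of the antenna trimers, rose by 0.36 ± 0.13 (SE, adjusted p = 0.0379). The rare LHCB4.3 was at 10.6, 9.33 and 9.99 CPM in yak1lst8-1, against 7.54, 6.27 and 5.77 CPM in lst8-1, and rose by 0.61 ± 0.15 without overlap (log2, SE; adjusted p = 0.00562). LHCB6, the remaining minor antenna protein, had a log2 fold change of 0.17 ± 0.13 and was not called (SE, adjusted p = 0.317).

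Among photosystem I subunits, PSAD and PSAE form the stromal ridge where ferredoxin docks. PSAD1 (AT4G02770) was at 1870, 1899 and 2103 CPM in yak1lst8-1, against 1299, 1441 and 1457 CPM in lst8-1. PSAE2 (AT2G20260) was at 515, 536 and 555 CPM in yak1lst8-1, against 391, 415 and 446 CPM in lst8-1. The groups were apart for both, and the log2 fold changes were 0.48 ± 0.10 and 0.36 ± 0.08 (SE, adjusted p = 0.00166 and 0.00204). Their second copies rose as well, PSAD2 by 0.52 ± 0.12 and PSAE1 by 0.35 ± 0.10 (log2, SE; adjusted p = 0.00286 and 0.0127). PSAH, needed for docking of the mobile photosystem II antenna, rose in both copies: PSAH1 by 0.36 ± 0.08 and PSAH2 by 0.39 ± 0.09 (SE, adjusted p = 0.00283 and 0.00254). PSAF (AT1G31330), part of the plastocyanin docking site, rose by 0.44 ± 0.12 (SE, adjusted p = 0.00779). PSAL and PSAO, both near the site where the mobile antenna docks, were the 2 subunits not called, at 0.18 ± 0.10 and 0.13 ± 0.10 (SE, adjusted p = 0.193 and 0.330).

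Among photosystem II subunits, PSBS (AT1G44575) had the smallest adjusted p of all members in this comparison. PSBS senses the lumen pH and is required for rapid thermal dissipation of excess light. Its level was 1302, 1373 and 1399 CPM in yak1lst8-1, against 888, 954.5 and 964 CPM in lst8-1, a log2 fold change of 0.54 ± 0.09 (SE, at an adjusted p = 0.000259). The low molecular weight subunits PSBW, PSBX and PSBY rose by 0.40 ± 0.11, 0.38 ± 0.11 and 0.38 ± 0.12 (SE, adjusted p = 0.00993, 0.0113 and 0.0240). Of the extrinsic proteins that shield the water-splitting site, PSBQ1 rose by 0.33 ± 0.09 (SE, adjusted p = 0.0129), while PSBQ2, PSBP1, PSBO1 and PSBO2 had log2 fold changes of 0.19 to 0.24 and were not called. Plastocyanin rose in both copies, PETE1 by 0.34 ± 0.11 and PETE2 by 0.43 ± 0.11 (SE, adjusted p = 0.0255 and 0.00602), and PETC stood at 0.06 ± 0.09 (SE, adjusted p = 0.642).

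The comparison of lst8-1 with Col0 asks how loss of the TOR complex subunit bears on these genes. In lst8-1, 9 members fell and 1 rose, where 27.5 % of all genes tested were called in either direction, 13.4 % of them as lower and 14.1 % as higher. The members' median log2 fold change was -0.17, against 0.001 for all genes tested. Photosystem I subunits held 5 of the 9 lower calls. Without the lst8-1 library numbered 1 the count of 10 became 2, without the lst8-1 library numbered 2 or the Col0 library numbered 1 it became 3, and only PSAE2 kept its call in every such fit.

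PSAE2 was at 391, 415 and 446 CPM in lst8-1, against 572, 506 and 509 CPM in Col0, a log2 fold change of -0.34 ± 0.08 (SE, at an adjusted p = 0.00346). PSAD1 was at 1299, 1441 and 1457 CPM in lst8-1, against 1886, 1779 and 1647 CPM in Col0, and PSAH1 at 689, 736 and 758 CPM in lst8-1, against 887, 878.5 and 868 CPM in Col0. All lst8-1 libraries lay below all Col0 libraries for these 3 genes, and PSAD1 fell by 0.34 and PSAH1 fell by 0.27 on the log2 scale (SE 0.10 and 0.08, adjusted p = 0.0203 and 0.0202). PSAF, and PSAK at the edge where antenna proteins bind, had log2 fold changes of -0.36 ± 0.12 and -0.33 ± 0.11 (SE, adjusted p = 0.0286 and 0.0384). The 7 other photosystem I subunits also had negative values, of -0.26 to -0.14, and were not called.

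Of the antenna genes, LHCA6 fell by 0.37 and LHCB4.1 fell by 0.37 in lst8-1 (SE 0.12 and 0.11, adjusted p = 0.0280 and 0.0208). Plastocyanin PETE2 had a log2 fold change of -0.31 ± 0.11 (SE, at an adjusted p = 0.0417), and its lst8-1 libraries, at 1999, 2097 and 2269 CPM, lay below those of Col0, at 2944, 2486 and 2467 CPM. For photosystem II, PSBQ1 had a log2 fold change of -0.29 ± 0.09 (SE, at an adjusted p = 0.0269). PSBO2 (AT3G50820), a copy of the manganese-stabilising protein, was the 1 member that rose, with 1324, 1448 and 1541 CPM in lst8-1, against 1233, 1168 and 1138 CPM in Col0. The groups did not overlap, the log2 fold change was 0.28 ± 0.10 (SE, adjusted p = 0.0495), and the call was lost with another scaling (adjusted p 0.00785 to 0.157 over the alternatives).

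**Figure D2:**
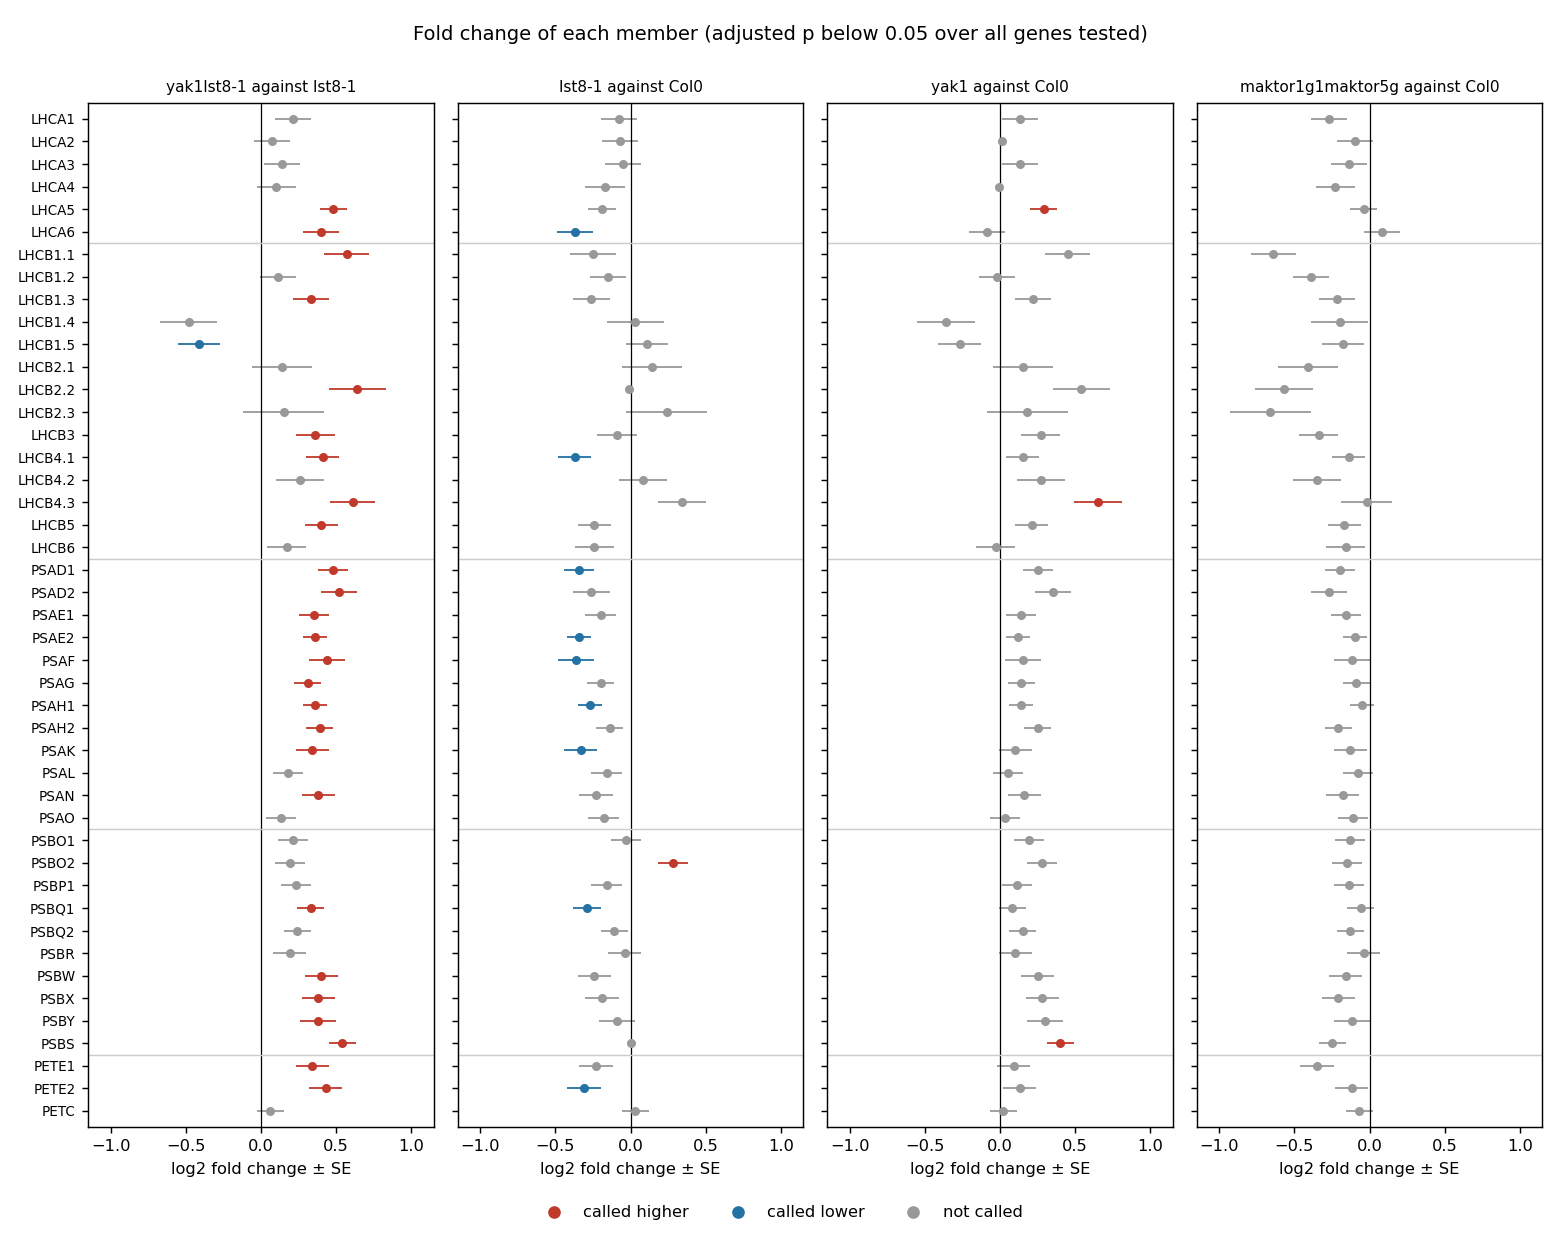
Log2 fold change of each of the 45 members (x axis; first genotype of the title over the second) with its SE, in 4 comparisons; red marks a call as higher, blue a call as lower and grey no call, points whose SE could not be estimated have no bar, and grey lines part the 5 lists. In yak1lst8-1 against lst8-1, 26 members are called higher and 1 lower; in lst8-1 against Col0, 1 higher and 9 lower.

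In the libraries labelled yak1, 3 members rose and none fell against Col0 in the fit with genotype alone, where 11.9 % of all genes tested were called in either direction, 5.75 % as higher and 6.11 % as lower. The median log2 fold change was 0.15 over the members and -0.007 over all genes tested. PSBS was at 1116, 1162 and 1413 CPM in yak1, against 1026, 941 and 838 CPM in Col0, without overlap and with a log2 fold change of 0.40 ± 0.09 (SE, at an adjusted p = 0.00864). LHCA5 rose by 0.29 ± 0.09 (SE, adjusted p = 0.0437). LHCB4.3 (AT2G40100), a rare relative of the minor antenna protein LHCB4, was at 6.76, 9.08 and 8.61 CPM in yak1, against 5.47, 4.69 and 5.33 CPM in Col0, and rose by 0.65 ± 0.16 (SE, adjusted p = 0.0130). The count moved widely with single libraries: it was 1 without the Col0 library numbered 2 and 10 without the yak1 library numbered 1. It was 0 when the model was fitted to the libraries of these 2 genotypes alone.

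The same 3 genes rose in the libraries labelled yak1lst8-1 against Col0, together with LHCB2.2 and PSBO2, and no member fell; the 2 comparisons share the Col0 libraries. In either direction 18.9 % of all genes tested were called, 10.3 % as higher and 8.65 % as lower, and the medians were 0.12 over the members and -0.009 over all genes tested. PSBS, whose yak1lst8-1 levels of 1302 to 1399 CPM lay above the Col0 levels of 838 to 1026 CPM, had a log2 fold change of 0.54 ± 0.09 (SE, at an adjusted p = 0.000409). LHCB4.3 was at 10.6, 9.33 and 9.99 CPM in yak1lst8-1, against 5.47, 4.69 and 5.33 CPM in Col0, a log2 fold change of 0.95 ± 0.16 (SE, at an adjusted p = 0.000339). PSBO2 was at 1524, 1689 and 1703 CPM in yak1lst8-1, against 1233, 1168 and 1138 CPM in Col0, and rose by 0.47 ± 0.10 (SE, adjusted p = 0.00349). LHCA5 rose by 0.29 ± 0.09 and LHCB2.2 by 0.62 ± 0.19 (SE, adjusted p = 0.0284 and 0.0341). LHCB2 proteins are those whose phosphorylation lets part of the antenna move between the photosystems. The count fell to 3 without any 1 of 4 libraries, those of Col0 numbered 2 and 3 and of yak1lst8-1 numbered 2 and 3, and scaling by library totals gave 6 higher and 2 lower.

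Between yak1lst8-1 and yak1 no member was called by edgeR or by DESeq2, and none had an unadjusted p below 0.05, where 2.99 % of all genes tested were called by edgeR and 15.3 % had an unadjusted p below 0.05. The members' log2 fold changes ran from -0.15 to 0.30 with a median of -0.03. For the photosystem I subunits the range was -0.11 to 0.00. The interaction, which is the difference of yak1lst8-1 from lst8-1 minus the difference of yak1 from Col0, was called for none of the 45 members by edgeR, with genotype as the only term, or by DESeq2 and for 3.47 % of all genes tested. An unadjusted p below 0.05 was found for 17.5 % of all genes tested and for 2 members, LHCA6 at 0.48 ± 0.17 and PSAE2 at 0.24 ± 0.11 (log2, SE; adjusted p = 0.138 and 0.280, edgeR). So the members' effect of the yak1 label in the lst8-1 background was not shown to differ from that in the Col0 background. Without the yak1 library numbered 3, 2 members were called for the interaction.

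Neither maktor genotype had a called member by edgeR in the fit with genotype as its only term. Against Col0, 0.0679 % of all genes tested were called in maktor1g1maktor5g, and as many in maktor1g1. Nearly all member values were nonetheless negative: 44 of 45 in maktor1g1maktor5g, with a median log2 fold change of -0.16, and 42 of 45 in maktor1g1, with a median of -0.12. For all genes tested the medians were -0.002 and -0.004. The 2 comparisons share the Col0 libraries. An unadjusted p below 0.05 was found for 11 members in maktor1g1maktor5g and 4 in maktor1g1, all with negative values, where 11.4 and 8.54 % of all genes tested had one. DESeq2 called 1 member in maktor1g1maktor5g and 0 in maktor1g1.

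LHCB1.1 had the smallest adjusted p of all members in both maktor lines against Col0 in that fit. It was at 2777, 3772 and 3715 CPM in maktor1g1maktor5g and 3240, 3846 and 4265 CPM in maktor1g1, against 5348, 5247 and 5414 CPM in Col0. Both lines lay below Col0 in every library, with log2 fold changes of -0.64 ± 0.15 and -0.50 ± 0.15 (SE, adjusted p = 0.112 and 0.356). All 3 LHCB2 genes had values of the same sign: LHCB2.1, LHCB2.2 and LHCB2.3 stood at -0.41 ± 0.20, -0.57 ± 0.19 and -0.66 ± 0.27 in maktor1g1maktor5g (log2, SE; adjusted p = 0.456, 0.298 and 0.381). Photosystem I subunits had a median of -0.13 there and photosystem II subunits of -0.14, while the photosystem II antenna had -0.28. Between maktor1g1maktor5g and maktor1g1 no member was called or had an unadjusted p below 0.05, by edgeR, and DESeq2 called none. Of all genes tested 0.00970 % were called by edgeR there, and 1.75 % had an unadjusted p below 0.05.

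The 5 LHCB1 genes were not alike across genotypes, and they lie at 2 places in the genome. LHCB1.1, LHCB1.2 and LHCB1.3 lie on chromosome 1 at 10474656-10475969, 10472280-10473502 and 10477885-10479114, and LHCB1.4 and LHCB1.5 on chromosome 2 at 14524607-14525918 and 14522524-14523568 (TAIR10.1). Their coding sequences are 86.7 to 96.4 % identical. The first 54 coding bases are given because a read must hold such differences to be assigned to 1 copy; capitals mark bases that differ from LHCB1.3 (RefSeq, TAIR10.1).
LHCB1.1: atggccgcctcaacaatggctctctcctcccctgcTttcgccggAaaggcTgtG
LHCB1.2: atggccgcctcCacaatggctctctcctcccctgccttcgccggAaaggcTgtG
LHCB1.3: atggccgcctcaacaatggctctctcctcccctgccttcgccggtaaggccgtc
LHCB1.4: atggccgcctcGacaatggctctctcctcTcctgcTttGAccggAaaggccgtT
LHCB1.5: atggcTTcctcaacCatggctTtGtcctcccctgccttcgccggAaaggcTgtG
Reads with an equally good second alignment had been removed. Of the windows of 50 bases in each transcript, 10.6 to 20.5 % also occur in a gene elsewhere for the 5 copies. An annotated non-coding transcript, AT2G08665, covers the whole of LHCB1.5 on the opposite strand, and the use of strand in counting was not stated, so the split of counts between copies is uncertain. In all, 16 of the 45 members overlap a gene on the opposite strand. Among them are PSAH1 (788 of 1608 bases), LHCB2.3 (595 of 1584), PSAG (479 of 780) and PSAE1 (436 of 1304, with AT4G28755). The same limit applies to their counts and to the family shares below.

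LHCB1.1 (AT1G29920) was at 5982, 6681 and 7342 CPM in yak1lst8-1, 3742, 4735 and 4970 CPM in lst8-1, and 5930, 6861 and 9033 CPM in yak1, against 5348, 5247 and 5414 CPM in Col0. LHCB1.5 (AT2G34420) was at 7313, 8160 and 8635 CPM in yak1lst8-1, 9575, 10993 and 11428 CPM in lst8-1, and 6671, 7776 and 10207 CPM in yak1, against 10009, 9676 and 9952 CPM in Col0. For LHCB1.1 yak1lst8-1 lay above lst8-1 in every library, and for LHCB1.5 it lay below. LHCB1.1 rose by 0.57 ± 0.15 in yak1lst8-1 against lst8-1 and LHCB1.3 by 0.33 ± 0.12 (log2, SE; adjusted p = 0.00832 and 0.0330). LHCB1.5 had a log2 fold change of -0.41 ± 0.14 (SE, at an adjusted p = 0.0305) and lost its call without any 1 of 4 libraries (adjusted p 0.00221 to 0.106 over the alternatives). LHCB1.4, its neighbour, stood at -0.48 ± 0.19 (SE, adjusted p = 0.0644), and LHCB1.2 at 0.11 ± 0.12 (SE, adjusted p = 0.505).

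Expressed as a share of the family's summed CPM per kb of gene model, the spread between libraries of a genotype was small. The gene model length used equals that of a TAIR10.1 transcript for 6 of the 45 members. LHCB1.1 held 14.0 ± 0.185 % in yak1lst8-1, 9.80 ± 0.509 % in lst8-1 and 14.2 ± 0.212 % in yak1, against 10.8 ± 0.121 % in Col0 (SD, n = 3 each). LHCB1.4 and LHCB1.5 together held 29.5 ± 0.299 % in yak1lst8-1, 41.7 ± 0.386 % in lst8-1 and 28.4 ± 1.41 % in yak1, against 36.5 ± 0.957 % in Col0. The chromosome 2 pair therefore held less of the family in the 2 genotypes labelled yak1 than in Col0, and more in lst8-1, with no overlap of libraries. With 3 libraries against 3, the smallest p an exact permutation test can give is 0.10. In maktor1g1maktor5g and maktor1g1 the pair held 38.3 ± 2.33 % and 37.9 ± 1.41 %, and these ranges overlap that of Col0.

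**Figure D3:**
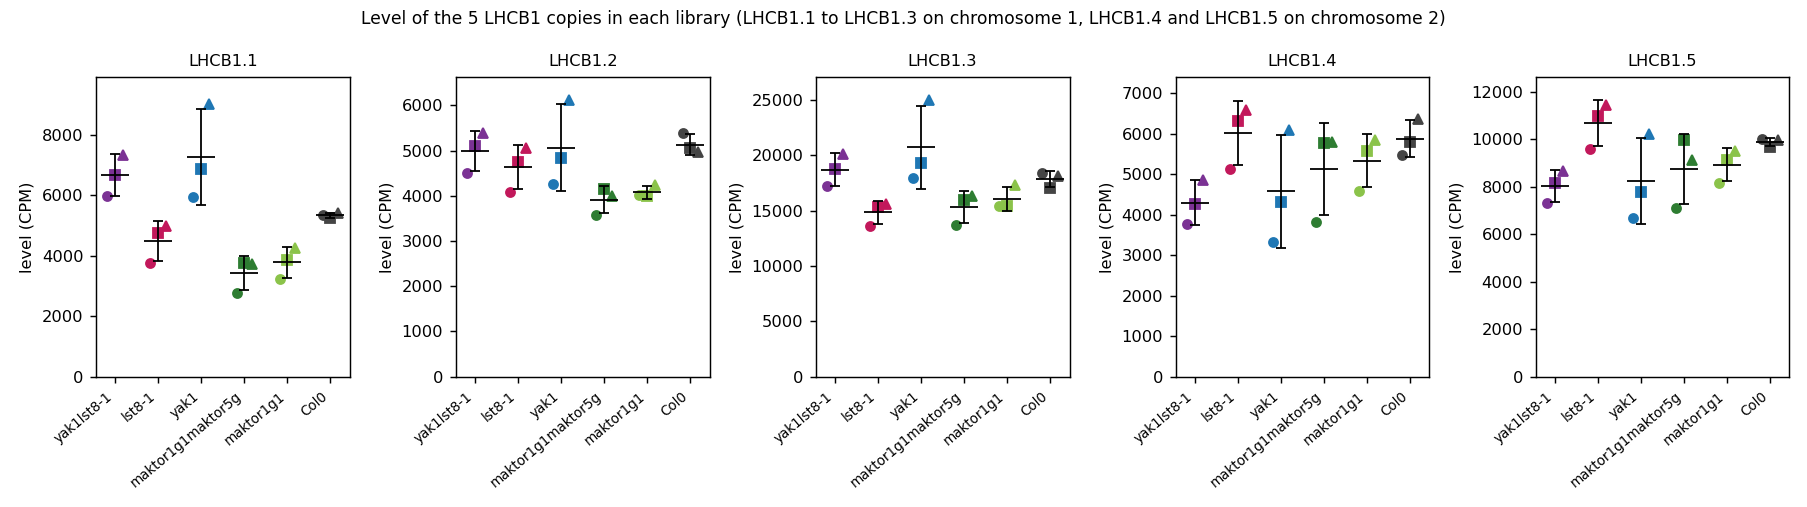
Level of each LHCB1 copy (CPM, y axis, from 0) in each library, by genotype (x axis); circles, squares and triangles are the libraries numbered 1, 2 and 3, and bars are the mean ± SD of 3 libraries. LHCB1.1 is higher in yak1lst8-1 (5982 to 7342 CPM) than in lst8-1 (3742 to 4970 CPM), and LHCB1.5 is lower (7313 to 8635 against 9575 to 11428 CPM).

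In LHCB2 the family shares of LHCB2.2 and LHCB2.1 also moved in opposite directions, though LHCB2.1 itself did not fall as LHCB1.5 did. These 2 copies share 28.2 and 22.7 % of their 50-base windows with each other. Of the family's CPM per kb, LHCB2.2 held 40.1 ± 0.378 % in yak1lst8-1 and 32.2 ± 0.276 % in lst8-1 (SD, n = 3 each). It held 41.3 ± 0.696 % in yak1, against 35.0 ± 0.564 % in Col0 (SD, n = 3 each). LHCB2.1 held 40.3 ± 0.910 % in yak1lst8-1, 45.6 ± 0.439 % in lst8-1 and 40.3 ± 1.11 % in yak1, against 44.6 ± 0.891 % in Col0. LHCB2.2 (AT2G05070) itself was at 2268, 2571 and 2892 CPM in yak1lst8-1, against 1450, 1633 and 1893 CPM in lst8-1. It rose by 0.64 ± 0.19 without overlap, while LHCB2.1 stood at 0.14 ± 0.20 and LHCB2.3 at 0.15 ± 0.27 (log2, SE; adjusted p = 0.0195, 0.628 and 0.717).

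In the LHCB4 family LHCB4.2 held 40.2 ± 0.599 % in yak1lst8-1 and 42.7 ± 0.981 % in lst8-1, against 35.4 ± 1.61 % in Col0, with the remainder almost all LHCB4.1. No window of 50 bases is shared among these copies. LHCB4.1 fell in lst8-1 against Col0, as given above, and LHCB4.2 stood at 0.08 ± 0.16 (log2, SE; adjusted p = 0.756). Of the PSBO CPM per kb, PSBO2 held 23.2 ± 0.347 % in yak1lst8-1 and 23.5 ± 0.440 % in lst8-1. Its share was 20.8 ± 0.168 % in yak1 and 19.8 ± 0.207 % in Col0. The PSBO2 share ran from 23.0 to 23.9 % over the libraries with the lst8-1 mutation, against 19.6 to 20.0 % in Col0, without overlap. The yak1 libraries, at 20.6 to 20.9 %, also lay above every Col0 library, by less. PSBO1 itself stood at -0.03 ± 0.10 in lst8-1 against Col0 (log2, SE; adjusted p = 0.853).

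PSAE1 held 74.4 ± 0.385 % of its pair in yak1lst8-1 and 74.5 ± 0.318 % in lst8-1, against 72.6 ± 0.535 % in Col0, without overlap. PSAH2 held 58.9 ± 0.680 % in yak1lst8-1, 58.3 ± 0.225 % in lst8-1 and 58.1 ± 0.441 % in yak1, 53.4 ± 0.914 % in maktor1g1maktor5g and 54.7 ± 0.279 % in maktor1g1, against 56.1 ± 1.18 % in Col0 (SD, n = 3 each). Its share lay above every Col0 library in the first 3 of these genotypes and below every Col0 library in both maktor lines. PSAD1 held 68.9 ± 0.639 % in yak1lst8-1 and 69.5 ± 0.557 % in lst8-1, against 70.6 ± 1.86 % in Col0, a difference within the spread. PSBQ1 held 42.0 ± 0.229 % in yak1lst8-1, 40.5 ± 0.331 % in lst8-1 and 44.7 ± 0.247 % in maktor1g1maktor5g, against 43.5 ± 1.89 % in Col0, where of these lst8-1 alone lay apart from Col0. PETE2 held most of the plastocyanin CPM per kb, from 90.9 to 93.7 % over the libraries.

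**Figure D4:**
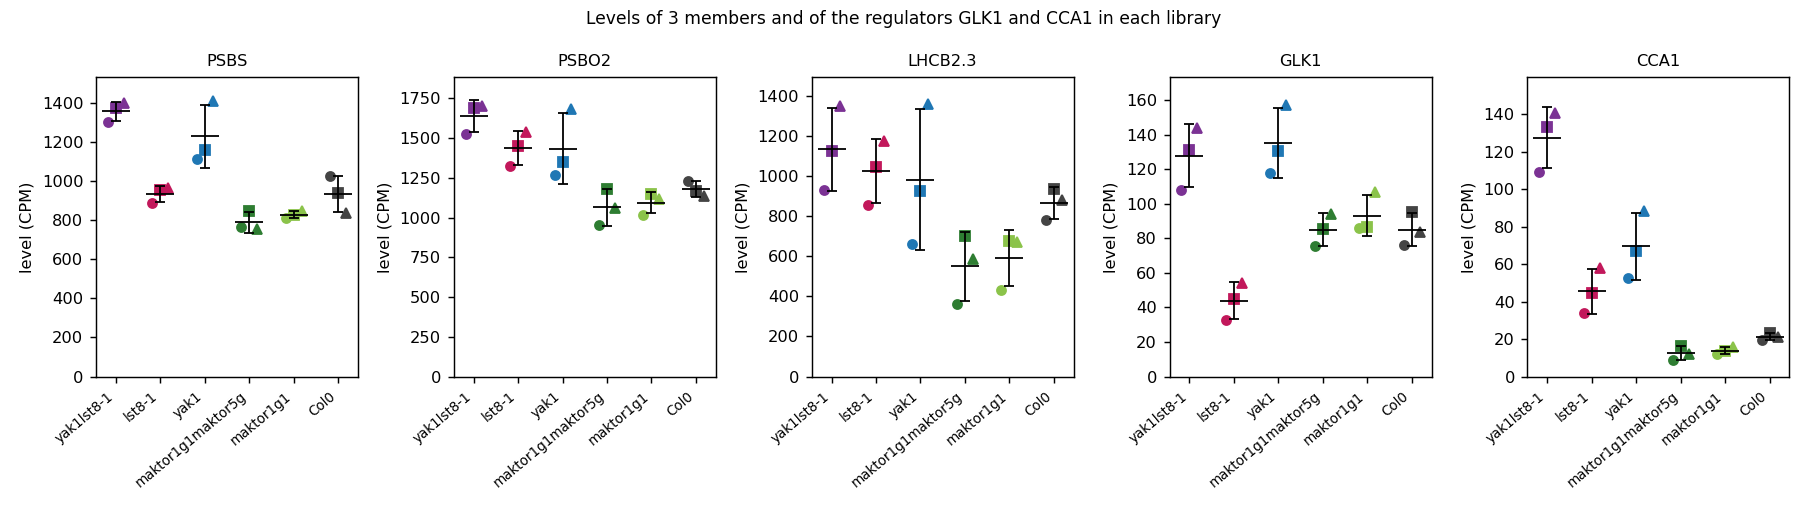
Levels of PSBS, PSBO2, LHCB2.3, GLK1 and CCA1 (CPM, y axes, from 0) in each library, by genotype (x axis); circles, squares and triangles are the libraries numbered 1, 2 and 3, and bars are the mean ± SD of 3 libraries. PSBS lies at 1302 to 1399 CPM in yak1lst8-1 and 888 to 964 CPM in lst8-1, and GLK1 at 108 to 144 and 32.9 to 53.9 CPM.

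Transcription factors that act on photosynthesis genes were followed as a list of 12. GLK1, which with GLK2 activates antenna and chlorophyll synthesis genes, was at 108, 131 and 144 CPM in yak1lst8-1 and 32.9, 44.9 and 53.9 CPM in lst8-1, and at 118, 131 and 157 CPM in yak1, against 76.2, 95.4 and 83.8 CPM in Col0. The lst8-1 libraries were below, and the yak1lst8-1 and yak1 libraries above, all Col0 libraries. GLK1 had log2 fold changes of 1.55 ± 0.17 in yak1lst8-1 against lst8-1, and of 0.59 ± 0.16, -0.96 ± 0.16 and 0.67 ± 0.16 in yak1lst8-1, lst8-1 and yak1 against Col0 (SE, adjusted p = 4.31e-06, 0.0164, 0.00043 and 0.0120). The GATA factors CGA1 and GNC, which promote greening, rose in lst8-1 against Col0 by 1.86 ± 0.17 and 1.18 ± 0.12 (log2, SE; adjusted p = 5.97e-07 and 1.37e-06). In all, 6 of the 12 rose and 2 fell in yak1lst8-1 against lst8-1. Against Col0, 4 rose and 1 fell in lst8-1 and likewise in yak1, and 8 rose and 1 fell in yak1lst8-1. Of all genes tested, 33.0 % were called in yak1lst8-1 against lst8-1. Against Col0, 27.5 % were called in lst8-1, 11.9 % in yak1 and 18.9 % in yak1lst8-1. These shares apply to the counts of the lists below as well. Between yak1lst8-1 and yak1, where 2.99 % of all genes tested were called, 4 of the 12 rose, CGA1 by 1.16 ± 0.17 (log2, SE, adjusted p = 0.000871).

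The list also held STH, HYH and BBX21, light-signalling factors of the B-box and bZIP families. STH rose by 1.31 ± 0.17 in yak1lst8-1 against lst8-1 and HYH by 0.59 ± 0.15, while BBX21 had a log2 fold change of -0.78 ± 0.09 (SE, at an adjusted p = 2.66e-05, 0.00706 and 3.01e-06). CCA1 and LHY, the morning clock factors, were added after their values had been seen. CCA1, whose protein was first found through its binding to an LHCB1 promoter, was at 109, 133 and 141 CPM in yak1lst8-1, 33.6, 44.7 and 57.9 CPM in lst8-1, and 52.8, 67.2 and 88.5 CPM in yak1, against 19.6, 23.1 and 21.1 CPM in Col0. Every library of these mutants exceeded every Col0 library. CCA1 rose by 2.59 ± 0.23, 1.09 ± 0.23 and 1.71 ± 0.23 in yak1lst8-1, lst8-1 and yak1 (log2, SE; adjusted p = 2.25e-06, 0.00268 and 0.000276). LHY was at 86.2, 104.1 and 111 CPM in yak1lst8-1, 7.91, 11.9 and 10.3 CPM in lst8-1 and 47.0, 47.8 and 68.1 CPM in yak1, against 9.14, 9.15 and 7.99 CPM in Col0, so that only lst8-1 of these 3 overlapped Col0. The time of day of harvest is not in the labels.

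The 250 bases before the annotated start of each LHCB1 gene were searched for 4 short motifs on both strands. These were the CCA1 site AANAATCT, the evening element AAAATATCT, the I-box GATAAG and the G-box CACGTG, none of which contains another. The 180 bases before each annotated gene start are shown because the copies differ in their response; capitals mark the CCA1 site (RefSeq, TAIR10.1, 5′ to 3′ towards the gene).
LHCB1.1, chr1:10475970-10476149, minus strand: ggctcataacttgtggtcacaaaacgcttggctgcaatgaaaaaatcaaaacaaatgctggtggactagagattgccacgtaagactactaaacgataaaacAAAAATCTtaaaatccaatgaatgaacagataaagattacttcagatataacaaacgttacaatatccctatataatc
LHCB1.2, chr1:10473503-10473682, minus strand: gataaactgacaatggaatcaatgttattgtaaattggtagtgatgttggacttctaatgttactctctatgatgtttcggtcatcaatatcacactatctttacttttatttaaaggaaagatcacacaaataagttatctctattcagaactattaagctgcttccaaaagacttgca
LHCB1.3, chr1:10477705-10477884, plus strand: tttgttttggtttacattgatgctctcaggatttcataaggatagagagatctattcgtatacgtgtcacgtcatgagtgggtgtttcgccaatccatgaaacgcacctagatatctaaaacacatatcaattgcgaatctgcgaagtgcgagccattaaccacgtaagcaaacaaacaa
LHCB1.4, chr2:14524427-14524606, plus strand: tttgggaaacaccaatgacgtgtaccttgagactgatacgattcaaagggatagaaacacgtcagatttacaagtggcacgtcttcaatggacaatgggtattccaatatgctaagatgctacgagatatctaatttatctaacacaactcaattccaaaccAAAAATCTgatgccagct
LHCB1.5, chr2:14523569-14523748, minus strand: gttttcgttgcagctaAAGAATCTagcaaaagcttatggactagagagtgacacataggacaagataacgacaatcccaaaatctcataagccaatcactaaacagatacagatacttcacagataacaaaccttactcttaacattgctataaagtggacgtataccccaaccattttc
Within 250 bases of the annotated start, LHCB1.1, LHCB1.4 and LHCB1.5 hold 1 CCA1 site each, beginning 78, 18 and 164 bases before it. LHCB1.2 and LHCB1.3 hold none in that stretch. Bases past the annotated start were not searched, and the starts may not lie at equivalent places in the copies. The letters ccacgtaag stand close to the annotated start in LHCB1.3, but in LHCB1.1 they stand further away and before the CCA1 site. Whether LHCB1.3 holds a site past its annotated start is therefore not shown here. A match of letters is a description and not a binding site. LHCB1.1, which rose in yak1lst8-1 against lst8-1, and LHCB1.5, which fell, both hold one. Over all members the CCA1 site was found in 10 of 45 (22.2 %), against 13.4 % of 27443 genes. The I-box was found in 11 (24.4 %), against 12.3 % of genes, the G-box in 8 (17.8 %), against 6.5 %, and the evening element in 1 (2.2 %), against 2.4 %.

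Chlorophyll synthesis genes, needed for every antenna protein to fold, were counted as a list of 16. In yak1lst8-1 against lst8-1, 9 rose and none fell, where 33.0 % of all genes tested were called in either direction. In lst8-1 against Col0, 8 fell and none rose, where 27.5 % were called. CHLI1 and CHLD, subunits of the magnesium chelatase that commits protoporphyrin to chlorophyll, rose by 0.73 ± 0.07 and 0.40 ± 0.06 in yak1lst8-1 against lst8-1 (log2, SE; adjusted p = 1.43e-06 and 6.07e-05). PORA, a protochlorophyllide reductase best known from seedlings greening out of the dark, was low throughout. It was at 1.35 ± 0.0727 CPM in yak1lst8-1 and 0.179 ± 0.105 CPM in lst8-1, against 0.961 ± 0.382 CPM in Col0 (SD, n = 3 each). Its lst8-1 level is near that of 3 counts, which correspond to 0.171 to 0.278 CPM over the libraries. PORB, the related enzyme of light-grown plants, was at 737, 803 and 766 CPM in yak1lst8-1, 662, 742 and 707 CPM in lst8-1 and 1060, 1136 and 1117 CPM in yak1, against 1401, 1402 and 1336 CPM in Col0. It was lower in all 3 mutants than in Col0, with log2 fold changes of -0.84 ± 0.07, -0.97 ± 0.07 and -0.32 ± 0.07 (SE, adjusted p = 1.56e-07, 2.34e-08 and 0.00491). Against Col0, 6 rose and 3 fell in yak1lst8-1, with CHLH at 0.76 ± 0.13 (log2, SE; adjusted p = 0.000284), and 3 rose and 2 fell in yak1.

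Factors that target antenna proteins to the thylakoid or assemble the photosystems numbered 18. In yak1lst8-1 against lst8-1, 11 rose and 1 fell, where 33.0 % of all genes tested were called in either direction. In lst8-1 against Col0, 8 fell and none rose, where 27.5 % were called. LIL3.1 and LIL3.2, membrane proteins with an antenna-like motif that hold chlorophyll synthesis enzymes, rose in yak1lst8-1 against lst8-1 by 0.66 ± 0.09 and 0.57 ± 0.07 (log2, SE; adjusted p = 2.4e-05 and 1.3e-05). CPSRP54, a subunit of the particle that carries antenna proteins to the thylakoid, had a log2 fold change of -0.58 ± 0.08 in lst8-1 against Col0 (SE, adjusted p = 4.65e-05). ELIP2, an early light-induced protein, rose in yak1 by 1.24 ± 0.34 and in yak1lst8-1 by 1.91 ± 0.33, each against Col0 (log2, SE; adjusted p = 0.0248 and 0.00063). In those comparisons 2 of the 18 rose and 1 fell in yak1, and 4 rose and 2 fell in yak1lst8-1.

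Of 6 enzymes that phosphorylate antenna proteins, reverse it or run the xanthophyll cycle, 3 rose and none fell in yak1lst8-1 against lst8-1. In lst8-1 against Col0, 1 rose and 2 fell. Of all genes tested, 33.0 and 27.5 % were called in these comparisons. STN7, the kinase of state transitions, rose by 0.48 ± 0.11 in yak1lst8-1 against Col0, and its opposing phosphatase TAP38 had a log2 fold change of -0.36 ± 0.08 (SE, at an adjusted p = 0.00436 and 0.00332). ZEP rose by 0.90 ± 0.16 and NPQ1 had -0.59 ± 0.09 in the same comparison (log2, SE; adjusted p = 0.000589 and 0.000211); these enzymes drive the xanthophyll cycle in opposite directions. A further 16 nuclear genes for cytochrome b6f, ferredoxin, its reductases and the ATP synthase gave 9 higher and 1 lower in yak1lst8-1 against lst8-1, and 1 higher and 3 lower in lst8-1 against Col0. FD1, a leaf ferredoxin, rose by 0.97 ± 0.13 in yak1lst8-1 against lst8-1 (log2, SE; adjusted p = 1.9e-05). LFNR2, a ferredoxin reductase, had -0.67 ± 0.08 in lst8-1 against Col0 (log2, SE; adjusted p = 1.04e-05).

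The plastid-encoded subunits were covered thinly in these polyA-selected libraries, with 0.0424 to 0.186 % of a library's counts on plastid genes. The 11 counted summed to 738, 546 and 416 CPM in yak1lst8-1, 597, 486 and 485 CPM in lst8-1, and 450, 796 and 1532 CPM in yak1, against 265, 390 and 402 CPM in Col0. The yak1 library numbered 3 was again the highest. In yak1 against Col0, 5 rose and none fell, with ATCG00730 at 1.09 ± 0.25 (log2, SE; adjusted p = 0.00849); 1 rose in lst8-1 and 1 in yak1lst8-1, each against Col0, and none was called in yak1lst8-1 against lst8-1, where none had an unadjusted p below 0.05 (edgeR).

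Whole plants mix organs, so root markers and leaf markers outside photosynthesis were read beside these results. The 14 root markers summed to 520, 604 and 732 CPM in yak1lst8-1, 532, 726 and 962 CPM in lst8-1, 364, 551 and 781 CPM in yak1, 516, 627 and 774 CPM in maktor1g1maktor5g and 500, 578 and 601 CPM in maktor1g1, against 359, 617 and 544 CPM in Col0. These ranges overlap, and no root marker was at 0 in any library. By single markers, 6 of 14 rose and 2 fell in lst8-1 against Col0, and 1 rose and 5 fell in yak1lst8-1 against lst8-1. Of all genes tested, 27.5 and 33.0 % were called in these comparisons. RSL4, a root hair regulator, stood at -1.37 ± 0.18 in yak1lst8-1 against lst8-1, and COBL9, a root hair cell wall protein, rose by 1.14 ± 0.16 in lst8-1 against Col0 (log2, SE; adjusted p = 1.58e-05 and 6.15e-05). These 2 do not stand for the list. Log2 fold changes of the 14 root markers ran from -1.37 to 1.38 in the first comparison and from -1.9 to 2.1 in the second. The 7 leaf markers summed to 221 to 241 CPM in yak1lst8-1, 214 to 237 CPM in lst8-1, 209.7 to 221 CPM in yak1, 226 to 245 CPM in maktor1g1maktor5g and 241 to 255 CPM in maktor1g1, against 215 to 237 CPM in Col0. All maktor1g1 libraries lay above all Col0 libraries, and the other ranges overlap that of Col0. By single markers, 2 rose and 3 fell in lst8-1 against Col0, and 2 rose and 2 fell in yak1lst8-1 against lst8-1. The part of organ proportions in the members' differences was not tested.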

How the data were processed

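Stranded single-end libraries were made from polyA-selected RNA, per the labels' protocols. The authors deposited raw read counts per gene model for 18 libraries, 3 for each of 6 genotypes. The submitters' processing notes name TopHat2, Bowtie2 and TAIR10, with no versions, and the use of strand in counting is not given in the sources used here. Reads with an equally good second alignment, 1.85 to 2.22 % of those mapped, were removed, per the file headers. Libraries held 10801464 to 17548790 counts, so that 3 counts correspond to 0.171 to 0.278 CPM. The members and gene lists were chosen with earlier results of these data known. Named with values were all called members where up to 10 were called, otherwise the 4 with the smallest adjusted p of each member list, the paralog families, and up to 3 called genes of each other list. Further members, CCA1 and LHY were added after their values were seen. Counts were scaled by TMM and tested with edgeR 4.0.16 and limma 3.58.1 in R 4.3.3, as quasi-likelihood tests on 20619 genes (61.4 % of 33602) that passed the filter on low counts. All 45 members passed. One fit held all 18 libraries and genotype alone, with 12 residual degrees of freedom and a common biological coefficient of variation of 10.8 %. P-values were adjusted over all genes tested by Benjamini-Hochberg, with a threshold of 0.05. Standard errors were derived from the test statistic. The procedure was tested on simulated data. No library was a duplicate of another within sampling noise (chi-square per degree of freedom 2.99 to 22.8 within genotypes). This does not show that libraries came from separate plants. Alternatives were other scalings, no filter, DESeq2 1.42.0, only the groups compared, a replicate block, and leaving out libraries. Replicate numbers met the criterion for pairing in maktor1g1maktor5g against maktor1g1 (correlations of 0.43, 0.21 and 0.16 between same-numbered libraries), where the blocked fit also called 0 members. Motifs and sequences came from RefSeq, TAIR10.1, matched by locus.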

Additional observations from a re-analysis of the deposited data

Results flagged for a closer look

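None of the 45 members was singled out. Among the genes followed beside them, 8 were called for the interaction (edgeR quasi-likelihood fit, Benjamini-Hochberg adjustment). It is the difference of yak1lst8-1 from lst8-1 minus the difference of yak1 from Col0. With the members, 145 genes were listed, and 3.47 % of all genes tested were called for the interaction. For chlorophyll synthesis, the interaction was 0.35 for CHLD, 0.47 for CHLI1 and 0.45 for PORB (log2; adjusted p = 0.0273, 0.0204 and 0.0155). Among targeting factors it was 0.49 for LIL3.1, 0.46 for LIL3.2 and 0.44 for CPSRP54 (log2; adjusted p = 0.0358, 0.0182 and 0.0405). The regulator GLK1 had 0.88 (log2; adjusted p = 0.0433). The root hair regulator RSL4 was the 1 gene with a negative value, -1.29 (log2; adjusted p = 0.0147).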

How the results depend on the processing

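The number of members called changed with the processing, while no called member changed direction under any alternative run. Replicate numbers are not stated to mark a shared batch; same-numbered libraries of different genotypes had a median correlation of deviations of 0.214, differently numbered ones of -0.098, and 14 of 18 libraries correlated best with their own number. With the replicate number as a block, 17 members were called in lst8-1, 14 in yak1, 13 in yak1lst8-1, 3 in maktor1g1 and 8 in maktor1g1maktor5g, each against Col0, 32 in yak1lst8-1 against lst8-1, and 1, LHCA6, for the interaction. These included LHCB1.1, LHCB2.2 and PETE1 as lower in both maktor lines, and LHCB1.4 and LHCB1.5 as lower in yak1. With all libraries numbered 1 left out, an alternative chosen after seeing the data, the counts against Col0 were 3 in lst8-1, 13 in yak1 and 11 in yak1lst8-1. DESeq2 called 8 members in yak1 and 1 in maktor1g1maktor5g, library totals gave 6 in yak1 and 8 in yak1lst8-1, and fits to only the groups compared gave 0 in yak1 and 9 in yak1lst8-1. Leaving out each replicate in turn gave 2 to 9 calls in lst8-1, 1 to 10 in yak1 and 3 to 5 in yak1lst8-1 against Col0, 14 to 27 in yak1lst8-1 against lst8-1, and 0 to 2 for the interaction. In the other comparisons it gave 0. Under another scaling the all-gene median farthest from 0 was -0.076 (log2, yak1lst8-1 against lst8-1), against -0.016 with TMM. The cause of these changes was not tested. Among the members, depth limits only LHCB4.3, with as few as 61 counts.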
